A study of Mus musculus with 18 samples.

Results

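Loss of CD45 in lung group 2 innate lymphoid cells (ILC2) was examined in 6 of the 18 libraries of the series, 3 from CD45 knockout (KO) mice and 3 from control mice, chosen by tissue and genotype alone and compared over all genes. The genotype labels give Rag2 KO for the controls and CD45 KO x Rag2 KO for the knockouts, so every mouse also lacked the Rag2 recombinase gene and with it T and B cells. The cells were ILC2 sorted from lung, and the labels name no treatment. The labels give 200 cells per sort but 100 cells in each tube, and which of these applies is open. Age and sex of the mice, the sorting markers and whether mice were pooled are not given there, nor whether the 3 replicates of a group came from separate mice, so p-values measure the spread between these libraries, which may be technical. The other 12 libraries are mature and immature bone marrow ILC2 of the same genotypes and serve here only to show where lung differs.

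CD45, the product of Ptprc, is a receptor tyrosine phosphatase on all nucleated blood cells. It removes the inhibitory phosphate from the tail of Src-family kinases, and can also remove the activating one, so its loss can lower or raise signalling depending on the receptor and the cell. ILC2 carry no rearranged antigen receptor. In the lung they respond to the alarmins IL-33, IL-25 and TSLP and to neural and lipid signals with IL-5, IL-13 and growth factors, and immediate-early transcription factors of the EGR, NR4A, AP-1 and NF-kB families relay such signals to the cytokine genes.

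The 6 lung libraries held 68077 to 107373 counts and 7189 to 8359 detected genes, with a median of 12.3 counts per library for a tested gene. Levels below are CPM, counts scaled to the library total with trimmed-mean factors, and a gene with 0 counts in a library could have a level of up to 41.7 CPM (3 counts) where the total was lowest, for counting error only. All 14 defining ILC2 genes were tested, and none was at 0 in either group. The library CD45 KO replicate 1 held 515 CPM of macrophage, monocyte and dendritic cell markers, against 22.04 to 53.5 CPM in the controls and 46.5 and 27.0 CPM in the other CD45 KO libraries. In that library Lyz2 had 8 counts, Chil3 7 and Ear2 5, all at 0 in the other 5 libraries, while Csf1r, Itgax, Itgam and the C1q genes were at 0 throughout. CD45 KO libraries also differed more among themselves than controls did, with a chi-square per degree of freedom of 1.495 to 1.80 between replicates against 1.27 to 1.32. Below, libraries are called control 1 to 3 and CD45 KO 1 to 3 by their replicate number.

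Ptprc itself checks the labels. It lies on chromosome 1, minus strand (chr1:138062861-138175708, mm10). Control libraries held 628, 546 and 563 CPM, from 57, 51 and 64 counts, and CD45 KO libraries 153, 112 and 229 CPM, from 11, 12 and 17 counts. Every CD45 KO library lay below every control, with a log2 fold change of -1.86 ± 0.27 (SE) and an adjusted p of 6.28e-07. Each SE is the absolute log2 fold change over the square root of the F statistic of the test described next. It is approximate, and unreliable at low counts or for values near 0. Here and below, each adjusted p is from the edgeR quasi-likelihood test after Benjamini-Hochberg correction across 1916 tested genes, and a gene passed below 0.05. The sources used here do not name the deleted part of Ptprc, and priming from the poly(A) tail samples 3' ends, so counts that remain are no measure of intact transcript.

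CD45 loss changed 48 of 1916 tested genes in lung ILC2 (2.51%), with 39 higher (2.04%) and 9 lower (0.47%) in CD45 KO. Immediate-early transcription factors, type 2 cytokines, a chemokine, receptors and ribosomal protein genes were among the higher genes, and Ptprc, the adhesion receptors Sdc4 and Cd44, and the transcription factor Maf among the lower ones. Groups did not overlap for any of the 48, against 19.7% of all tested genes without overlap, a share that the call itself raises. Log2 fold changes of the higher genes ran from 0.38 to 2.24, with a median of 0.72. Calls rose with depth. They came to 0.435% of the 689 genes with a mean under 10 counts per library and 12.4% of the 137 genes with 100 or more. Over all tested genes 50.9% of fold changes were positive. Counts of positive or passing members in the gene lists below stand against these shares, and depth differs between lists. Leaving out 1 library left between 27 calls (control 3 left out) and 37 (CD45 KO 1 left out), and 16 of the 48 genes kept their call with each of the 6 lung libraries left out: Ptprc, Egr1, Nr4a3, Fosb, Jund, Actg1, Lmo4, Srgn, Ifngr1, Pisd-ps3, Ccl1, Ly6a, Ets2, Nfkbiz, Zc3hav1 and Rps15a. Libraries are bulk samples of sorted cells, so fewer cells that express a gene and less RNA per cell cannot be told apart.

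**Figure D1:**
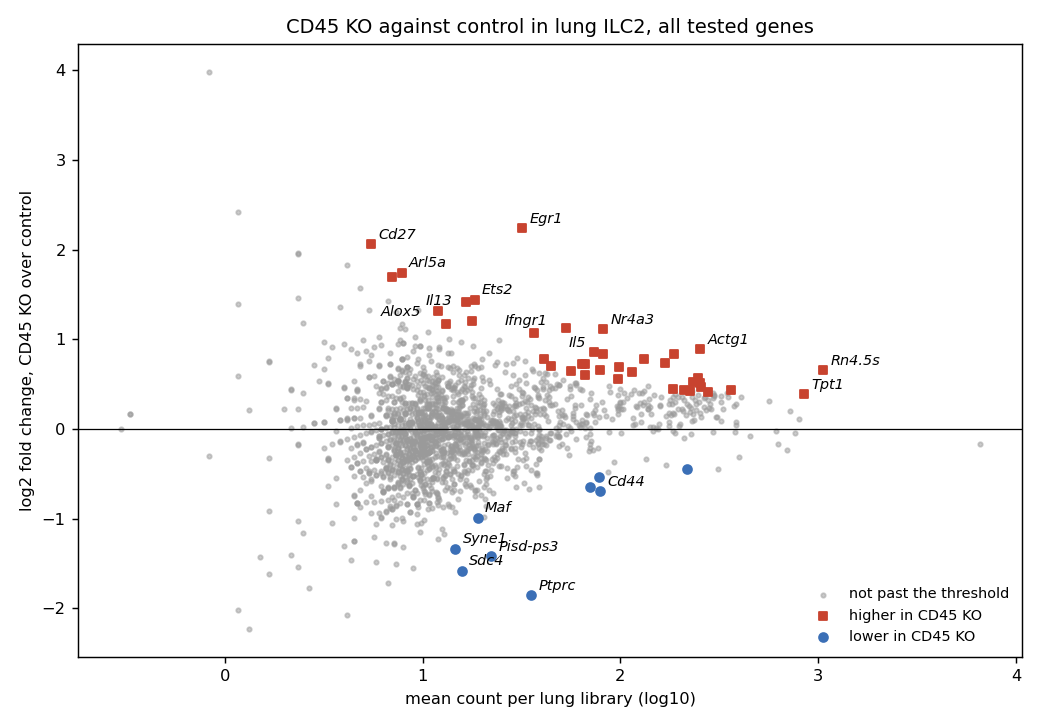
Each point is 1 of the 1916 tested genes, with the mean count per lung library on a log10 scale on the x axis and the log2 fold change of CD45 KO over control on the y axis. Red squares are the 39 genes higher and blue circles the 9 genes lower in CD45 KO; grey points did not pass, and called genes with few counts have large fold changes, such as Cd27 at 2.06 with a mean of 5.5 counts.

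Immediate-early factors of the EGR and NR4A families had the highest median of the gene lists. Lists were chosen with earlier results of these data known. Here and below their medians, counts of positive members and shares called are therefore descriptive only. Fold changes were positive for all 5 tested members, the median was 0.99 against 0.01 for all tested genes, and 3 rose. Egr1, a zinc finger factor induced within minutes by ERK and serum response factor, was at 143, 107 and 132 CPM in controls and at 528, 539.7 and 769 CPM in CD45 KO. Every CD45 KO library lay above every control, and the p was the lowest of all tested genes (2.24 ± 0.28, adjusted p = 8.81e-09). Nr4a3, an orphan nuclear receptor induced by antigen receptor and cAMP signals, was at 661, 492 and 580.3 CPM in controls and 1043, 1331 and 1349 CPM in CD45 KO (1.11 ± 0.17, adjusted p = 1.93e-06). Nr4a1, its paralogue and a widely used reporter of receptor signalling, was at 2678, 1872 and 2524 CPM against 2823, 3508 and 3400.2 CPM. Its groups were close, with control 1 just under CD45 KO 1 (0.46 ± 0.13, adjusted p = 0.0302), and omitting control 2, control 3, CD45 KO 2 or CD45 KO 3 ended the call (adjusted p up to 0.303). Egr3 did not pass (0.99 ± 0.31, adjusted p = 0.0723), though its groups did not overlap at 209, 160.4 and 176 CPM against 236, 391 and 445 CPM. Nr4a2 was at 0.57 ± 0.21 (adjusted p = 0.152).

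AP-1 factors, the FOS and JUN dimers that join receptor signals to cytokine promoters, were positive in 7 of 7 tested members. Their median was 0.42, and 2 rose (28.6%, against 2.04% of all tested genes). Fosb was at 1587, 1187 and 1433 CPM in controls and 2044, 2392 and 2537 CPM in CD45 KO (0.73 ± 0.13, adjusted p = 0.000151). Jund, the JUN member known for steady rather than pulsed expression, was at 838, 738 and 914 CPM against 1488, 1191 and 1389.8 CPM (0.69 ± 0.15, adjusted p = 0.00149). Junb (0.40 ± 0.12, adjusted p = 0.0576) and Fosl2 (0.42 ± 0.16, adjusted p = 0.177) did not pass although their groups did not overlap. Fos, the partner most often used to mark acute stimulation, was at 0.08 ± 0.19 (adjusted p = 0.943), with overlapping groups. Of 16 other genes known as immediate-early or induced by tissue dissociation, 13 were positive, with a median of 0.19, and 0 passed by edgeR (7 at an unadjusted p under 0.05). By DESeq2 0 passed as well, with 10 of the 16 lacking an adjusted p. The lowest p-values among them belonged to Myc (1.32 ± 0.43, adjusted p = 0.0798), at 66.1, 74.9 and 44.0 CPM against 153, 167 and 135 CPM, and Klf6 (0.64 ± 0.21, adjusted p = 0.0907).

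Promoter sequences are shown for 4 of the immediate-early genes that rose (Nr4a3, Nr4a1, Fosb and Jund) and for the chemokine gene Ccl1. Each of these genes passed on its own, and whether they share a regulator was not tested. The promoter of Egr1 is not shown here. The RefSeq table (GRCm38.p6) gives 250 bases before to 50 bases after a start that it lists for the gene. In it, 35 of the 48 changed genes had an entry. Capitals mark the letters TGACG on either strand, the core of the cAMP response element bound by CREB and ATF factors, and matches to the NF-kB motif. The windows are chr4:48045055-48045354 on the plus strand for Nr4a3, chr15:101266596-101266895 on the plus strand for Nr4a1, chr7:19309996-19310295 on the minus strand for Fosb, chr8:70697489-70697788 on the plus strand for Jund and chr11:82179763-82180062 on the minus strand for Ccl1.
Nr4a3: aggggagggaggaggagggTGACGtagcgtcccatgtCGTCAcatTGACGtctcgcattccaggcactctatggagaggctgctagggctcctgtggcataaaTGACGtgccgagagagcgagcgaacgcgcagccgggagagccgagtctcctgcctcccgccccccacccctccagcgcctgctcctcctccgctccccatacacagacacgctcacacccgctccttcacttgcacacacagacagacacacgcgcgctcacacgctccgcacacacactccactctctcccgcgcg
Nr4a1: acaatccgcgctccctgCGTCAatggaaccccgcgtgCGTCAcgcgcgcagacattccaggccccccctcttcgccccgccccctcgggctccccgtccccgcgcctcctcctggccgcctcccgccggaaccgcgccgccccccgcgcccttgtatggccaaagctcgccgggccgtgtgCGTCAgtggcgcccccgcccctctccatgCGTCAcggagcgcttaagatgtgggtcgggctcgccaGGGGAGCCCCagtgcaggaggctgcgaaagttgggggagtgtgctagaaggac
Fosb: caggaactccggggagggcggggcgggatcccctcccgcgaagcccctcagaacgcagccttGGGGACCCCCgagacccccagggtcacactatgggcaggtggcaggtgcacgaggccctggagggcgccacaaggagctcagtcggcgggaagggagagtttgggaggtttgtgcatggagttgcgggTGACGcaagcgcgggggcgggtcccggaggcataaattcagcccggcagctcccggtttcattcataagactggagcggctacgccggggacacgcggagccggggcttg
Jund: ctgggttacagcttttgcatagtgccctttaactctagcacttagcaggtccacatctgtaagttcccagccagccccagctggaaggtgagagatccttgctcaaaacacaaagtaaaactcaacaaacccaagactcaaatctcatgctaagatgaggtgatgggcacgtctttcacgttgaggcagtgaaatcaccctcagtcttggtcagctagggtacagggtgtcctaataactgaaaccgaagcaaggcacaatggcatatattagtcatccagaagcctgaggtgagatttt
Ccl1: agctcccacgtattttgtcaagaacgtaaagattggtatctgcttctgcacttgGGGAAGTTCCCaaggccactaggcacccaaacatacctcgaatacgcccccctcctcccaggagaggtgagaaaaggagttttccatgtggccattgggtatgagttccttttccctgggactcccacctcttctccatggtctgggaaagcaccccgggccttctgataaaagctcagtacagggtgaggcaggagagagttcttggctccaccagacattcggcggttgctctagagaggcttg
Nr4a3 and Nr4a1 each held 4 of the cAMP response element cores and Fosb 1, whereas Ccl1 held 0 of them and 2 overlapping NF-kB matches whose starts lay 1 base apart. Fosb and Nr4a1 also held 1 NF-kB match each, and the Jund window held 0 of either motif. That window ends before the GENCODE start of Jund (chr8:70698949, plus strand). It does not cover that start, so its motif counts may not describe the Jund promoter. Among genes higher in CD45 KO the core stood in at least 1 window of 16 of the 30 with an entry (53.3%), among tested genes in 593 of 1483 (40.0%) and among all genes of the RefSeq promoter table in 6228 of 27025. The full element TGACGTCA stood in 3 of the 30 genes, 3.91% of the 1483 and 2.03% of the 27025. The AP-1 motif TGANTCA stood in 6.67%, 6.61% and 8.97%, and the CArG box in 6.67%, 1.69% and 1.81%. The NF-kB motif stood in 6 of the 30, 14.6% and 9.55%. The EGR motif GCGTGGGCG stood in 0 of the 30, 1.15% and 0.707%. The core is part of the full element, all motifs were read on both strands, and these shares describe letters in the windows, with no test of binding.

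Lists of proximal signalling, tyrosine phosphatase and MAP kinase feedback genes stand against calls in 2.51% of all tested genes. At that share, lists this short can hold 0 calls. Of 11 tested genes for Src-family kinases, their regulators and adaptors, 5 were positive, the median was -0.02 and 0 passed by edgeR (1 at an unadjusted p under 0.05). DESeq2 called 0 but gave 10 of the 11 no adjusted p. Csk, whose kinase opposes CD45 at the inhibitory tail phosphate, was at -0.17 ± 0.28 (adjusted p = 0.881). Of 10 tested tyrosine phosphatase genes, Ptprc alone passed, and Ptpn9 was next (1.31 ± 0.48, adjusted p = 0.141). The 4 tested feedback inhibitors of MAP kinases were positive with a median of 0.12 and 0 calls by edgeR (1 at an unadjusted p under 0.05), DESeq2 gave none of them an adjusted p, and Spry2 had the lowest p (0.67 ± 0.24, adjusted p = 0.116).

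Among 11 tested NF-kB pathway genes, 8 were positive, the median was 0.28 and 2 rose (18.2%, against 2.04% of all tested genes). Nfkbiz, an atypical inhibitor-family protein that acts in the nucleus as a coactivator of secondary response genes, was at 1014, 995 and 967 CPM in controls and 1460.2, 1601 and 1552 CPM in CD45 KO (0.64 ± 0.14, adjusted p = 0.00312). Nfkb1, which encodes the p105 precursor of p50, was at 429.9, 567 and 466 CPM against 765, 763 and 769 CPM (0.65 ± 0.17, adjusted p = 0.0189). Omitting control 1, control 3, CD45 KO 2 or CD45 KO 3 ended the Nfkb1 call (adjusted p up to 0.119). The classical feedback genes Tnfaip3 (0.28 ± 0.12, adjusted p = 0.246) and Nfkbia (0.18 ± 0.13, adjusted p = 0.58) did not pass, although the CD45 KO libraries lay above the controls in both.

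**Figure D2:**
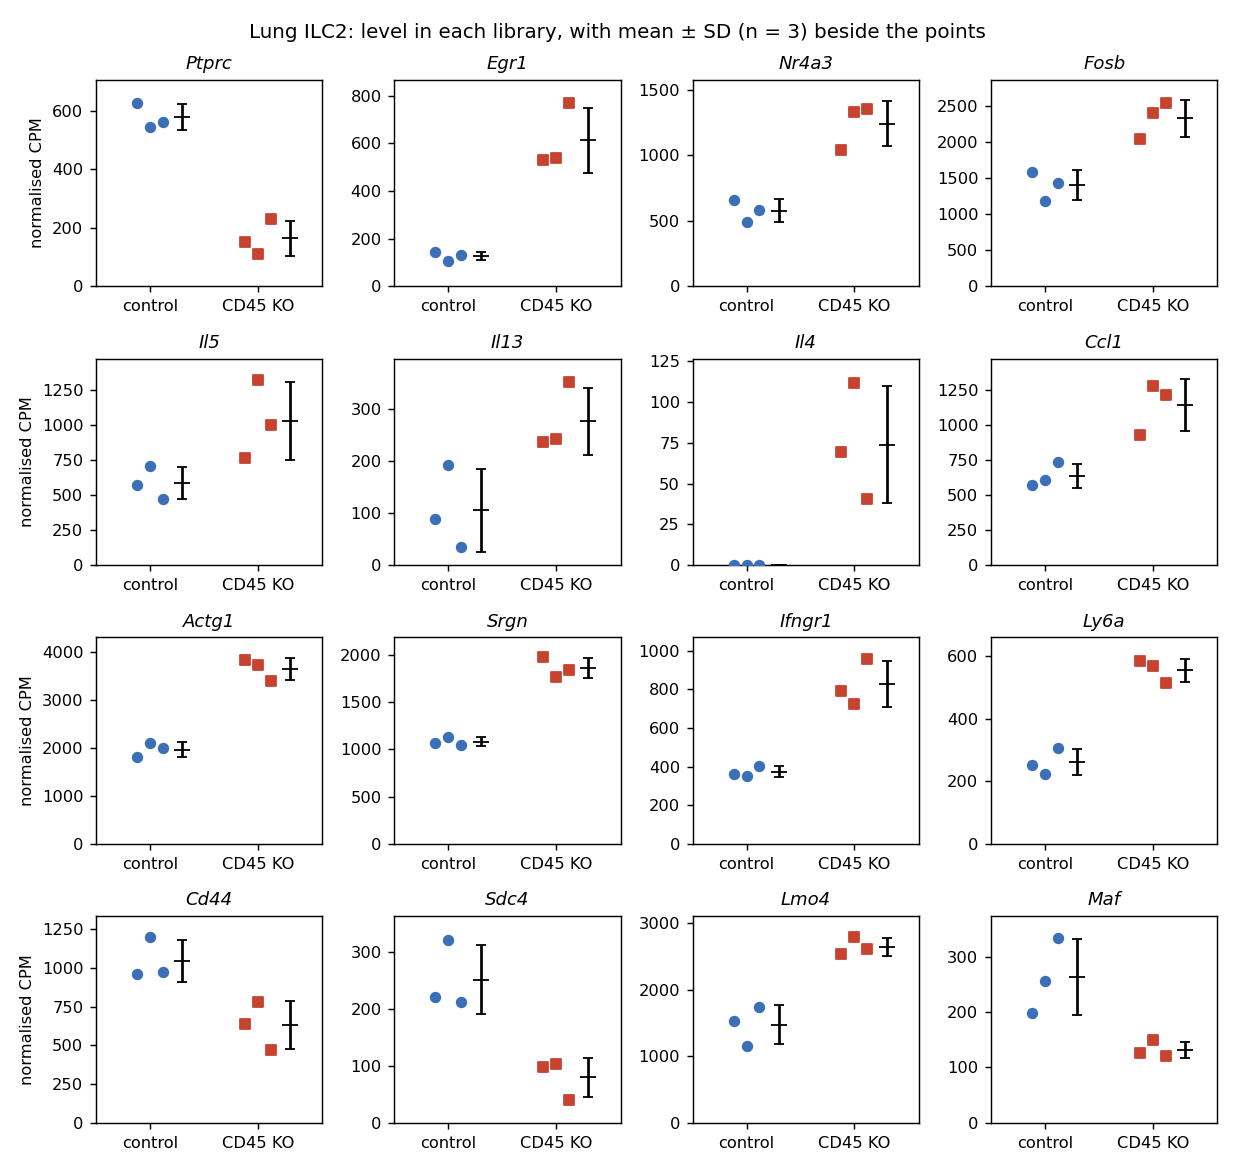
Normalised CPM in each lung library for 16 genes, with controls as blue circles and CD45 KO as red squares in the order of their replicate numbers, and the mean ± SD (n = 3) beside the points; each panel has its own linear y axis from 0. Groups do not overlap in any panel, and the spread is widest relative to the mean for Il13, whose controls run from 35.2 to 193 CPM.

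The type 2 cytokine genes Il5 and Il13 rose. Among 11 tested effector genes 10 were positive, against 50.9% of all tested genes, and the median was 0.48. Il5, which encodes the growth factor of eosinophils, was at 573, 706 and 475 CPM in controls and 765, 1321 and 998 CPM in CD45 KO (0.86 ± 0.19, adjusted p = 0.00191). Omitting control 3 or CD45 KO 2, the libraries with its lowest and highest level, ended the call (adjusted p up to 0.141). Il13, whose product drives mucus production and alternative macrophage activation, was at 88.2, 193 and 35.2 CPM against 236, 242 and 351 CPM (1.42 ± 0.40, adjusted p = 0.0346). Il13 held 8, 18 and 4 counts in controls 1, 2 and 3 and was under 10 CPM in every bone marrow group. It thus met the count filter for testing only through the CD45 KO libraries. It rested on a mean of 16.5 counts per lung library, and its log2 fold change ran from 0.95 to 2.19 when 1 library was left out. Only the omission of control 2 left the call in place (adjusted p otherwise up to 0.329).

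Il4, the third gene of the type 2 cytokine cluster, had too few counts over the 18 libraries for the list of tested genes. It had 0 counts in each of the 3 controls and 5, 12 and 3 counts in CD45 KO 1, 2 and 3. The CD45 KO group was at 78.9 CPM (95% Poisson interval 48.2 to 121.9 CPM), 7.84 times the level that 3 counts over the 3 controls would give. From the lower limit of that interval, Il4 was at least 4.79-fold higher in CD45 KO, for counting error only. The spread between the CD45 KO libraries is not part of that bound. Fitted with no filter on low counts, Il4 passed (adjusted p = 0.00037 over 12945 genes) and kept the call whichever lung library was omitted (adjusted p up to 0.0484). Il4 (chr11:53602982-53618669), Il13 (chr11:53631324-53634702) and Il5 (chr11:53720794-53725106) lie in the same stretch of chromosome 11 on mm10. Csf2 lies further along the same chromosome (chr11:54247271-54249667), and encodes the growth factor GM-CSF. It was at 915, 973 and 906 CPM in controls and 1126, 1247 and 1241 CPM in CD45 KO, without overlap, and did not pass (0.38 ± 0.15, adjusted p = 0.177). Areg, which encodes the tissue repair factor amphiregulin, was at 1190.4, 1187 and 1398 CPM against 1864, 1861 and 1538 CPM (0.48 ± 0.15, adjusted p = 0.0614). Arg1, which encodes the arginine-degrading enzyme of lung ILC2, was at 0.44 ± 0.17 (adjusted p = 0.168). Il6 and Il9, other cytokines of activated ILC2, had 1 and 0 counts in the controls together and 4 and 1 in CD45 KO, too few to compare.

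Ccl1, a chemokine that attracts CCR8-bearing cells, was at 573, 609.7 and 739 CPM in controls and 932, 1284 and 1214 CPM in CD45 KO (0.84 ± 0.17, adjusted p = 0.000612). It was the 1 of 4 tested chemokine genes to pass. Cxcl2, a neutrophil attractant, was at 0.42 ± 0.14 (adjusted p = 0.0964). Among 5 tested chemokine and lipid guidance receptors, 4 were positive and 0 passed by edgeR (3 at an unadjusted p under 0.05) or among the members that had a DESeq2 adjusted p (2 had none), with Ccr9, the receptor for the gut and thymus chemokine CCL25, at 1.82 ± 0.68 (adjusted p = 0.142) and Gpr183, the oxysterol receptor, at 0.70 ± 0.33 (adjusted p = 0.292). Alox5, which encodes the enzyme that starts leukotriene synthesis, was at 66.1, 53.5 and 106 CPM in controls and 223, 149 and 229 CPM in CD45 KO (1.32 ± 0.35, adjusted p = 0.0189). Myeloid cells also express Alox5, and the part of the macrophage markers of CD45 KO 1 in its level was not tested beyond leaving that library out. The Alox5 call ended without CD45 KO 1 (1.23 ± 0.38, adjusted p = 0.0794), and also without CD45 KO 3, control 1 or control 2 (adjusted p up to 0.127).

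Cytokine receptors and costimulatory molecules showed a mixed pattern. Ifngr1, the ligand-binding chain of the interferon gamma receptor, was at 364, 353 and 404 CPM in controls and 793, 726 and 958 CPM in CD45 KO (1.12 ± 0.22, adjusted p = 0.000612), and was the 1 of 9 tested receptors of the gamma chain and related families to pass. The chains Il4ra (0.93 ± 0.31, adjusted p = 0.0984), Il2ra (0.51 ± 0.18, adjusted p = 0.103) and Il10ra (0.72 ± 0.25, adjusted p = 0.107) came next. Il7r, the receptor for the survival cytokine IL-7, had a negative value (-0.37 ± 0.17, adjusted p = 0.272). Interferon-inducible genes themselves showed no call: 6 of 14 tested members were positive, the median was -0.33 and 0 passed by edgeR (1 at an unadjusted p under 0.05). DESeq2 called 0 and left 13 of the 14 without an adjusted p. The full list of 36 genes held only 235 counts over the 3 controls and 186 over the 3 CD45 KO libraries. These counts are too few to tell whether the interferon response changed. Ly6a, which encodes the surface antigen Sca-1, was at 254, 225 and 308 CPM against 584, 568 and 513 CPM (1.07 ± 0.22, adjusted p = 0.000662).

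Of 10 tested costimulatory and inhibitory receptors and ligands, 3 rose. Icos, a CD28-family receptor that ILC2 use with their own ICOS ligand, was at 859.7, 781 and 949.6 CPM in controls and 1377, 1266 and 1201 CPM in CD45 KO (0.56 ± 0.15, adjusted p = 0.027). Lilrb4a, an inhibitory receptor whose counts can be shared with its near copy Lilr4b, was at 99.2, 96.3 and 79.1 CPM against 223, 205 and 189 CPM (1.17 ± 0.35, adjusted p = 0.0467). Cd27, a TNF receptor family member, was at 11.02, 42.8 and 17.6 CPM against 83.4, 112 and 108 CPM (2.06 ± 0.60, adjusted p = 0.0445), from a mean of 5.5 counts. These calls rest close to the threshold. For Icos, omitting control 1, control 2, CD45 KO 1 or CD45 KO 2 ended it (adjusted p up to 0.149). For Cd27 the omission of any library but control 2 did so (up to 0.193), and for Lilrb4a that of any 1 of the 6 (up to 0.212). Tnfrsf18, which encodes GITR, was at 0.62 ± 0.20 (adjusted p = 0.0861). Of 4 tested receptors for alarmins, 0 passed by edgeR (1 at an unadjusted p under 0.05) or by DESeq2, which gave 2 of them no adjusted p, and Il1rl1, the IL-33 receptor gene, was at 1168, 1209 and 1372 CPM against 987, 1498 and 1389.8 CPM (0.06 ± 0.15, adjusted p = 0.953), with overlapping groups and a sign that changed between fits.

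Adhesion genes moved in opposite directions. Sdc4, a heparan sulfate proteoglycan that works with integrins, was at 220.4, 321 and 211 CPM in controls and 97.3, 102 and 40.5 CPM in CD45 KO (-1.58 ± 0.37, adjusted p = 0.00451). Cd44, the hyaluronan receptor, was at 959, 1198 and 976 CPM against 639.7, 782 and 472 CPM (-0.69 ± 0.17, adjusted p = 0.0063). Omitting control 2 or CD45 KO 3 ended both calls, at an adjusted p of up to 0.0854 for Sdc4 and 0.111 for Cd44. Selplg, which encodes the P-selectin ligand PSGL-1, was at 265, 332 and 404 CPM against 487, 568 and 688 CPM (0.78 ± 0.20, adjusted p = 0.0165) with the call ended by omitting control 1, control 2 or CD45 KO 3 (adjusted p up to 0.127). Of 14 tested adhesion genes, 7 were positive and the median was -0.04. Cd52, a small glycoprotein of the lymphocyte surface, was at 859.7, 1219 and 906 CPM against 626, 689 and 729 CPM (-0.54 ± 0.16, adjusted p = 0.0467). Among the 6 omissions of a lung library, only that of control 1 left the Cd52 call in place (adjusted p up to 0.35), and 6 of the other alternative fits ended it, the DESeq2 Wald test among them (adjusted p = 0.0582).

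Among 16 tested transcription factors of the ILC lineage, 2 rose and 1 fell (18.75% called, against 2.51% of all tested genes). That share is descriptive only, as the list was chosen with earlier results known, and it includes Ets2, which the filter favoured. Lmo4, a LIM-only cofactor that binds GATA and other factors, was at 1532, 1155 and 1741 CPM in controls and 2531, 2792 and 2618 CPM in CD45 KO (0.84 ± 0.14, adjusted p = 2.45e-05). Ets2, an ETS factor activated by ERK phosphorylation, was at 99.2, 118 and 114 CPM against 319.9, 316 and 269.9 CPM (1.44 ± 0.33, adjusted p = 0.00337). With 9, 11 and 13 counts in the controls, Ets2 met the count filter only with the CD45 KO libraries. Maf, known for direct control of type 2 and IL-10 genes in T cells, was at 198, 257 and 334 CPM against 125, 149 and 121 CPM (-0.99 ± 0.29, adjusted p = 0.0467). Among the omissions of 1 lung library, only that of control 1 left the Maf call in place (adjusted p otherwise up to 0.343), and 6 of the other alternative fits ended it too, the replicate block and DESeq2 size factors among them. Gata3, the factor that defines the ILC2 lineage, was at 3428, 3048 and 3201 CPM against 2934, 3555 and 2901 CPM (-0.04 ± 0.13, adjusted p = 0.967), and Rora, its partner in ILC2 development, at -0.01 ± 0.15 (adjusted p = 0.994), with overlapping groups and signs that changed between fits. Id2 was at 0.37 ± 0.17 (adjusted p = 0.295).

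Ribosomal protein genes were higher by small amounts. Fold changes were positive in 77 of 83 tested genes, with a median of 0.27, and 6 passed by edgeR and 22 by DESeq2. CD45 KO libraries lay above all controls in 54 of 83 (65.1%) against 12.3% of all tested genes. These shares are not matched for depth. The 6 that passed by edgeR had means of 224 to 364 counts per lung library, against a median of 12.3 counts for tested genes. Rps15a, a protein of the small subunit, was at 1951, 2439 and 2233 CPM in controls and 3505, 2922 and 3468 CPM in CD45 KO (0.57 ± 0.12, adjusted p = 0.00191). Rps10 (0.52 ± 0.12), Rps7 (0.51 ± 0.12), Rpl13 (0.43 ± 0.12), Rpl9 (0.42 ± 0.13) and Rpl27a (0.42 ± 0.12) were the others, and omitting 1 library could end each of these 5 calls (adjusted p up to 0.0514 for Rps7 without control 1 and up to 0.246 for Rpl9). Without CD45 KO 1, the library with the macrophage markers, Rps10 (adjusted p = 0.0566), Rpl9 (0.0778) and Rpl27a (0.155) did not pass. As a share of each library, ribosomal protein genes took 19.7% to 21.7% in controls and 22.7% to 23.4% in CD45 KO. Reads of these genes can be shared with their many pseudogenes, and Rps27rt, a retrogene copy of Rps27 that also passed (0.43 ± 0.13, adjusted p = 0.044, or 0.198 without CD45 KO 1), is uncertain for that reason. Of 35 tested translation factors, 2 rose (5.71%, against 2.04% of all tested genes). They were Rack1, a scaffold on the small ribosomal subunit (0.44 ± 0.13, adjusted p = 0.044), and Tpt1, a growth-linked protein (0.38 ± 0.11, adjusted p = 0.0467). Most omissions of 1 library ended both calls (adjusted p up to 0.178 and 0.155, each without CD45 KO 1). Proteasome genes (11 of 19 positive), oxidative phosphorylation genes (27 of 49) and splicing factors (18 of 39) had medians between -0.02 and 0.09 and 0 calls by edgeR, with 2, 2 and 0 members at an unadjusted p under 0.05. DESeq2 also called 0 of them, but 17, 41 and 27 of these members had no DESeq2 adjusted p.

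**Figure D3:**
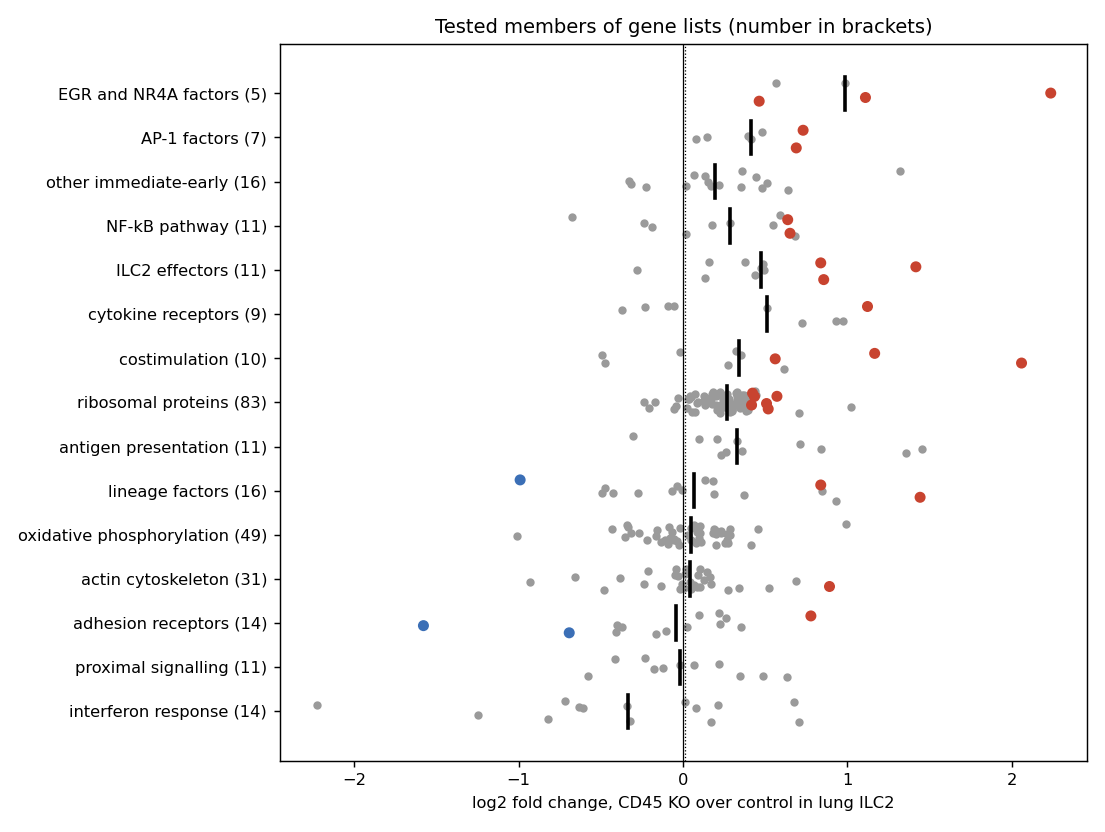
Each point is the log2 fold change of 1 tested member of a gene list in lung ILC2, CD45 KO over control, with the number of tested members in brackets; red and blue points passed higher and lower, black bars are list medians and the dotted line is the median of all tested genes at 0.01. The EGR and NR4A list has the highest median (0.99), the ribosomal protein list a narrow shift (0.27) and the interferon list the lowest (-0.33), from genes with few counts.

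Metabolic and cytoskeletal lists held single calls. Ldha, which makes lactate in glycolysis, was at 540.1, 556 and 563 CPM in controls and 821, 996 and 904 CPM in CD45 KO (0.72 ± 0.17, adjusted p = 0.00451), a call that ended only without CD45 KO 2 (adjusted p = 0.0727). The other 10 tested glycolysis and hypoxia genes did not pass, and 10 of all 11 were positive with a median of 0.19. Actg1, cytoplasmic gamma actin, was at 1808, 2118 and 1996 CPM against 3838, 3741 and 3400.2 CPM (0.89 ± 0.13, adjusted p = 6.51e-07). It was the 1 of 31 tested actin cytoskeleton genes to pass (3.23%, near the 2.51% of all tested genes), and their median was 0.04. Reads of Actg1 can be shared with Actb and processed pseudogenes. Rgs1, a brake on G protein signals, was at 595, 770.1 and 642 CPM against 793, 1489 and 783 CPM (0.66 ± 0.18, adjusted p = 0.0302). CD45 KO 2 decided that value, which was 0.24 without it (adjusted p = 0.735), and omitting control 1 or control 3 also ended the call.

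Among 9 higher genes in none of the lists, Srgn, the core protein of the proteoglycan in secretory granules, was at 1069, 1134 and 1046 CPM in controls and 1975, 1768 and 1835 CPM in CD45 KO (0.78 ± 0.14, adjusted p = 9.41e-05). Zc3hav1, an antiviral zinc finger protein that targets RNA for decay, was at 551, 503 and 545 CPM against 834, 931 and 864 CPM (0.72 ± 0.17, adjusted p = 0.00445). Rn4.5s, a short RNA made by RNA polymerase III, was at 9391, 8065 and 9822 CPM against 10931, 14563 and 17487 CPM (0.66 ± 0.15, adjusted p = 0.00498), a call ended by omitting control 2 or CD45 KO 3 (adjusted p up to 0.119). The others were Arl5a (1.74 ± 0.43), Pa2g4 (1.70 ± 0.50), Dhx40 (1.21 ± 0.33), Hs3st1 (0.71 ± 0.21), Slc25a3 (0.60 ± 0.17) and Rps27rt, and omitting 1 library could end each of these calls (adjusted p up to 0.0671 for Arl5a and up to 0.28 for Pa2g4). Without CD45 KO 1, Dhx40 (adjusted p = 0.191) and Slc25a3 (0.133) did not pass, nor did Rps27rt. With 8, 13 and 15 counts in the controls, Dhx40 also met the count filter only with the CD45 KO libraries. Of 3 lower genes in none of the lists, the pseudogene Pisd-ps3 was at 419, 310.2 and 299 CPM against 125, 139.6 and 108 CPM (-1.42 ± 0.28, adjusted p = 0.000612). As a copy of Pisd it may hold reads of that gene. Syne1 (-1.34 ± 0.36), a nuclear envelope anchor of the cytoskeleton, and Itm2b (-0.45 ± 0.13), a membrane protein processed by furin, depended on single libraries (adjusted p up to 0.153 and 0.246 with 1 omitted, and 0.155 for Itm2b without CD45 KO 1).

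Errfi1 was singled out after its values were seen, because it and Il4 were the only genes outside the tested list to pass when no filter was set. It encodes a feedback inhibitor of EGF receptor signalling that ERK signals induce. The controls held 3, 0 and 1 counts and the CD45 KO libraries 12, 15 and 5 (3.12 ± 0.64, adjusted p = 0.00139 over 12945 genes), and without control 2 the adjusted p was 0.0781. Jun, also below the filter, had 5, 9 and 8 counts against 7, 21 and 14 (adjusted p = 0.582).

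Whether the CD45 effect in lung differed from bone marrow was tested as the lung effect minus the mean of the mature and immature effects. The difference passed for 24 of 1916 genes (1.25%), 16 with a higher and 8 with a lower effect in lung, and 11 of these were also among the 48. In lung all 6 libraries held 52 to 105 counts of Xist and 0 of 4 Y-linked genes, whereas all 12 bone marrow libraries held 0 counts of Xist and 10 to 32 of the Y-linked genes. Tissue and the sex of the mice therefore cannot be told apart in this comparison, while lung control and lung CD45 KO were alike in these genes. Lmo4 had the lowest p for a difference (1.55 ± 0.19, adjusted p = 2.5e-09), with 0.84 ± 0.14 in lung against -0.67 ± 0.17 in mature and -0.76 ± 0.17 in immature ILC2. The Lmo4 value was thus positive in lung and negative in both bone marrow populations, where it passed in immature ILC2 (adjusted p = 0.00461) and not in mature ILC2 (adjusted p = 0.0578). Within bone marrow, CD45 loss changed 1.67% of tested genes in immature and 0.261% in mature ILC2. Ifngr1 (1.62 ± 0.38, adjusted p = 0.0124), Icos (0.998 ± 0.24, adjusted p = 0.0158), Ly6a (0.97 ± 0.24, adjusted p = 0.0184), Jund (0.96 ± 0.24, adjusted p = 0.0162), Nfkb1 (0.93 ± 0.22, adjusted p = 0.0131) and Actg1 (0.75 ± 0.17, adjusted p = 0.0112) had a higher effect in lung, and Pisd-ps3 (-1.70 ± 0.40, adjusted p = 0.0112) a lower one. Of these, Lmo4 and Pisd-ps3 kept the difference with each of the 18 libraries left out. The other 6 depended on single libraries, at adjusted p up to 0.0525 for Nfkb1 without lung control 1 and up to 0.121 for Ly6a, and without lung CD45 KO 1 only 8 genes passed.

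Other genes differed without passing in lung itself. Vim, an intermediate filament gene, was at -0.25 ± 0.17 in lung and 1.26 ± 0.35 in mature and 1.20 ± 0.27 in immature ILC2, a difference of -1.48 ± 0.28 (adjusted p = 0.00107). S100a4, a calcium-binding protein of motile cells, was at -0.34 ± 0.14, 0.57 ± 0.23 and 0.95 ± 0.24, a difference of -1.10 ± 0.22 (adjusted p = 0.00178). For Ptprc the difference was -0.01 and did not pass. No difference could be estimated for Nr4a3, Fosb, Ccl1 and Il13, which were under 10 CPM in every bone marrow group. Nr4a1, Egr1 and Il5 were low there too. Their differences of 0.58, 0.64 and 0.47 did not pass (adjusted p = 0.893, 0.951 and 0.951), and their SE is unreliable at such counts. Zc3hav1, the antiviral gene, was at 0.72 ± 0.17 in lung, 0.68 ± 0.30 in mature and 0.46 ± 0.28 in immature ILC2 (difference 0.15 ± 0.27, adjusted p = 0.885).

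**Figure D4:**
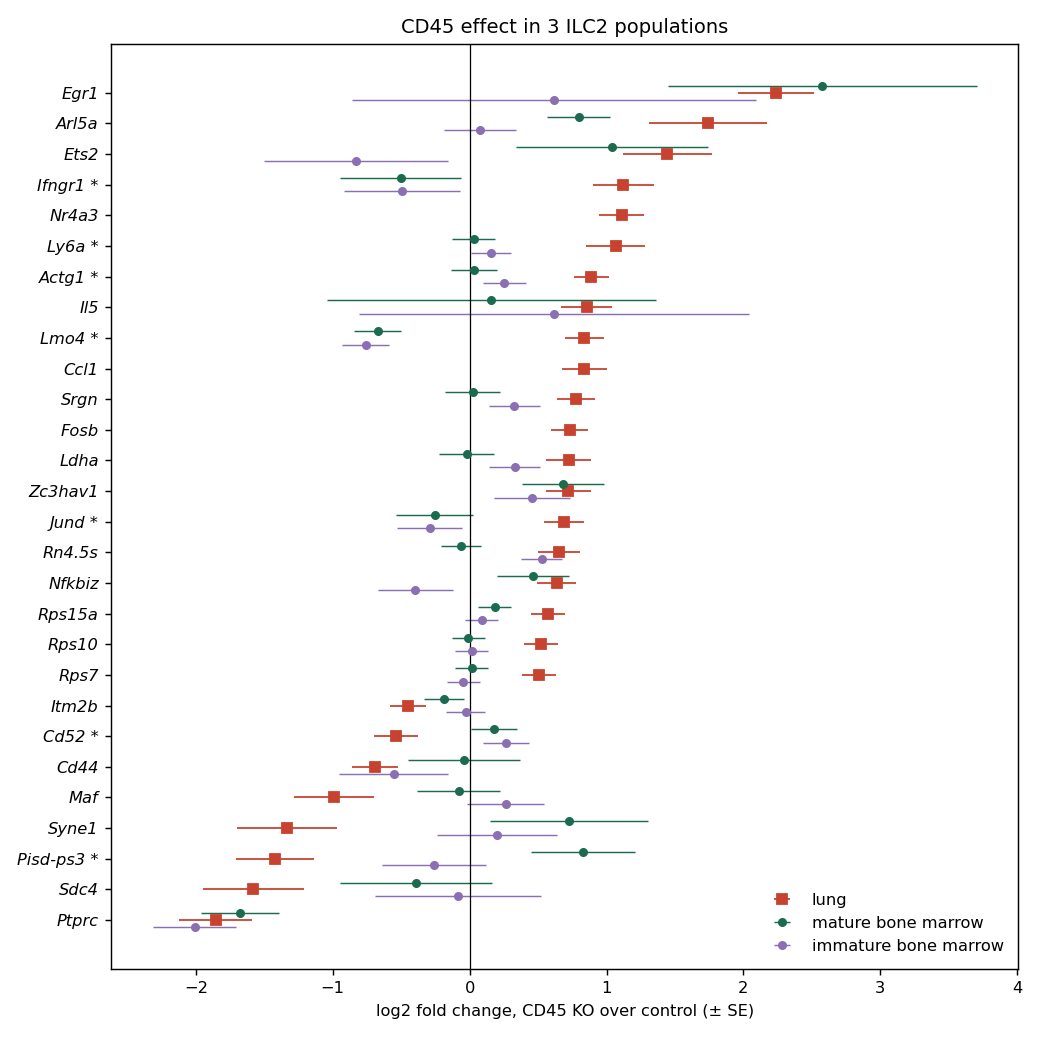
Log2 fold change of CD45 KO over control ± SE in lung (squares), mature (green circles) and immature (purple circles) bone marrow ILC2 for the 20 genes with the lowest p among those higher and for 8 of the 9 genes lower in lung CD45 KO, from 3 libraries in each group. A star marks a difference between lung and bone marrow with adjusted p under 0.05, bone marrow values are not drawn for genes under 10 CPM in every bone marrow group, and Ptprc is lower in all 3 populations.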

How the data were processed

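The authors deposited whole-number counts per gene symbol with no scaling between libraries, for 24781 genes, 11836 of them without a count in any library. Per the labels' protocols, lysed cells were reverse transcribed from a barcoded oligo-dT primer, with template switching and PCR. STAR and mm10 are named in the submitters' processing notes. Counter, use of strand and collapse by barcode are not stated, so overlapping genes and near-identical copies are uncertain. Genes were kept with edgeR's filterByExpr by group (minimum 10 counts), scaled with TMM factors and fitted over all 18 libraries as 6 group means with edgeR 4.0.16 in R 4.3.3 (quasi-likelihood test, 12 residual degrees of freedom). This left 1916 genes, holding 80.8% of lung counts. The spread is thus shared with the bone marrow libraries. The fit was tested on data simulated with the same spread for all genes. In lung it recovered 53.7% of 2-fold and 90.9% of 4-fold changes. For the difference between lung and bone marrow it recovered 29.5% and 81.8%. A gene that did not pass may therefore still have changed.

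Named genes were Ptprc, a fixed ILC2 panel, the higher (up to 16) and lower (up to 12) genes of lowest p, up to 4 passing members of each list (or 2 with the lowest p where none passed), up to 8 genes for the lung and marrow difference, and passing genes in no list. Members and lists were chosen with earlier results of these data known. Positions come from GENCODE M21 (1886 of 1916 genes matched) and promoters from RefSeq. Alternatives were DESeq2 1.42.0, its size factors, other filters, lung libraries alone, a replicate block and leaving out each library. The fits without Rn45s and Rn4.5s, those without ribosomal protein genes, and the fits of Il4 and Errfi1 without a filter were chosen after seeing the data. Single results for 2 tested genes are not reported here, though counts include them.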

Additional observations from a re-analysis of the deposited data

Results flagged for a closer look

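The CD45 effect differed between lung and the mean of the bone marrow populations for 24 genes, by the difference term of the edgeR quasi-likelihood fit (adjusted p under 0.05). In log2 units, lung minus bone marrow, the difference was 1.55 for Lmo4, 1.37 for Gpr132, 0.75 for Actg1, 1.62 for Ifngr1, 0.93 for Nfkb1, 0.998 for Icos, 0.96 for Jund and 0.97 for Ly6a. It was 1.59 for Birc3, 1.10 for Tnfrsf18, 1.80 for Ikzf3, 1.62 for Satb1, 0.56 for Rps27rt, 1.38 for Kit, 0.52 for D17H6S56E-5 and 0.63 for Shisa5. On the negative side it was -1.48 for Vim, -1.10 for S100a4, -2.03 for Rexo2, -1.70 for Pisd-ps3, -0.76 for Cd52, -1.15 for Hsp90aa1 and -0.77 for Ccr2. Among the 24, only Lmo4, Pisd-ps3, Rexo2, S100a4 and Vim kept the difference with each of the 18 libraries left out, and tissue cannot be told apart from the sex of the mice.

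Lung CD45 KO replicate 1 held 515 CPM of macrophage, monocyte and dendritic cell markers, above every other lung library. The part of these cells in the lung results was not tested beyond leaving that library out, which left 37 calls, 31 of them among the 48.

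Below the filter on low counts, Errfi1 had 32 counts in the lung CD45 KO libraries against 4 in the controls, and Il4 had 20 against 0.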

How the results depend on the processing

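The count of 48 genes (39 higher, 9 lower) was 22 with no filter on low counts (20 of them shared) and 27 to 37 with 1 lung library left out. Other fits gave 40 to 67 calls, but the balance moved: 28 higher and 18 lower with filter and fit on the lung libraries alone, 46 and 21 with those libraries and the same genes, 47 and 4 with the DESeq2 Wald test, and 26 and 9 without CD45 KO replicate 2 against 26 and 2 without CD45 KO replicate 3. DESeq2 gave no adjusted p for 16 of the 48 genes, Egr1, Il5, Il13 and Ifngr1 among them, kept 30 and lost Cd52 and Rgs1. Ptprc stayed between -2.16 and -1.59 and passed in each alternative run. Deviations of same-numbered lung libraries correlated at -0.03, 0.04 and 0.01. With a median of 12.3 counts per library for a tested gene, counting error weighs on these deviations. They therefore cannot decide whether the replicates were paired. With the replicate block 40 genes passed, 39 of them shared, and the difference between lung and marrow passed for 22 genes. That count, 24 in the fit reported, was 9 with no filter, 36 with DESeq2 and 8 to 35 with 1 library left out, lowest without lung CD45 KO replicate 1.

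Genes near 0 changed sign. Without ribosomal protein genes Gata3 was 0.0016, Rora 0.032 and Klrg1 0.015. Rora was also 0.027 with the DESeq2 Wald test, 0.026 with DESeq2 size factors, 0.030 with at least 10 counts in 3 libraries, 0.0059 with no filter and 0.0044 without Rn45s and Rn4.5s. Klrg1 was 0.011 with DESeq2 size factors, 0.012 with at least 10 counts in 3 libraries and 0.0013 with the replicate block, and Il1rl1 was -0.022 with filter and fit on lung alone. With 1 library left out Gata3 ran from -0.14 to 0.017, Rora from -0.041 to 0.056, Klrg1 from -0.16 to 0.092 and Il1rl1 from -0.075 to 0.21. The cause was not tested. Of the 1916 genes, 689 had a mean under 10 counts per lung library, where calls were fewest.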
